A study of Mus musculus with 2 samples.

Results

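The NFAT transcription factors and the calcineurin regulators were examined gene by gene and probe set by probe set in ATDC5 cells given Nell-1 or PBS. Members were the 10 genes Nfatc1, Nfatc2, Nfatc3, Nfatc4, Nfat5, Rcan1, Rcan2, Ppp3ca, Ppp3cb and Ppp3cc, each found through probe sets that the platform annotation ties to exactly 1 gene symbol. They had 37 probe sets, out of 45037 non-control probe sets and 18193 genes on the arrays. ATDC5 is a mouse cell line of teratocarcinoma origin, used as a model of early cartilage formation. Serum-starved cells were given the translation blocker cycloheximide (CHX) at 10 µg/ml for 30 min, and then recombinant human Nell-1, a secreted bone-forming glycoprotein, at 100 ng/ml for another 30 min (CHX+Nell-1, 1 array) or PBS (CHX+PBS, 1 array). Both arrays therefore come from starved, CHX-treated cells of 1 line, and no array without CHX was analysed here. The purpose given for the series was to find genes that respond without new protein synthesis. Nfatc2 has been described in published work on Nell-1 in this cell line as such a gene.

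Calcineurin is a phosphatase that calcium and calmodulin switch on. It removes phosphates from the cytoplasmic factors NFATc1 to NFATc4, which then enter the nucleus and bind DNA, often beside AP-1 proteins, while kinases such as GSK3 and DYRK1A send them back out. Its catalytic subunits are encoded by Ppp3ca, Ppp3cb and Ppp3cc, and the RCAN proteins bind and restrain it. Nfat5 encodes a relative that responds to osmotic stress and does not depend on calcineurin. In the skeleton, NFATc1 is best known as the master factor of osteoclasts, and NFATc2 for restraining cartilage formation in mice. Activation of NFAT proteins is a matter of phosphorylation and location, which arrays of RNA do not read. Transcripts of the members, and of Rcan1 as a classical NFAT target, are what was measured.

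Promoter windows of 3 members are shown because the results below turn on them: Nfatc4 was lower with Nell-1 on each of its bright probe sets, Nfatc2 is the member named in published work, and Rcan1 is the classical transcript readout of calcineurin. Each window, from RefSeq on GRCm38.p6, runs 5′ to 3′ from 250 bases before an annotated transcript start to 50 bases after it. Capitals mark GGAAA, the core bound by NFAT proteins, and TTTCC, the same core on the other strand. GGAAA contains GGAA, the core of the ETS factors. The Nfatc4 window is chr14:55824545-55824844 on the plus strand, the Nfatc2 windows are chr2:168601608-168601907 and chr2:168590316-168590615 on the minus strand, and the Rcan1 windows are chr16:92466120-92466419 and chr16:92400029-92400328 on the minus strand. The internal Rcan1 start is that of the short isoform, known to be driven by calcineurin and NFAT.
Nfatc4: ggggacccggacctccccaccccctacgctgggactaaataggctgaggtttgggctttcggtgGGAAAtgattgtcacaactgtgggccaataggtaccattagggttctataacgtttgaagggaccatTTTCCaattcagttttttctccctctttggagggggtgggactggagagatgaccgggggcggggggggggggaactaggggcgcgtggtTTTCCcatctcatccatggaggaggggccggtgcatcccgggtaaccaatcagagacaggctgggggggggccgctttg
Nfatc2, upstream start: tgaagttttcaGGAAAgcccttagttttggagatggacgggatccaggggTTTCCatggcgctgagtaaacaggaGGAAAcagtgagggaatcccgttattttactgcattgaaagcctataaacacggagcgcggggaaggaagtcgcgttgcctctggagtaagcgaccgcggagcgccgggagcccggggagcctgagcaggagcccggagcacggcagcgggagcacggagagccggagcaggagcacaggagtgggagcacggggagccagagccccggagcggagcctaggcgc
Nfatc2, downstream start: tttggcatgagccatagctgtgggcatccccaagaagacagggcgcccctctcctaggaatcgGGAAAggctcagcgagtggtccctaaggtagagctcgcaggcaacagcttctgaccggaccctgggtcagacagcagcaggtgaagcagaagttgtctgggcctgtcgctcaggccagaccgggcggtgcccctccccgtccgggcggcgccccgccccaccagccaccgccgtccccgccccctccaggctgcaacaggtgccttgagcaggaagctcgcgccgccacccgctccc
Rcan1, upstream start: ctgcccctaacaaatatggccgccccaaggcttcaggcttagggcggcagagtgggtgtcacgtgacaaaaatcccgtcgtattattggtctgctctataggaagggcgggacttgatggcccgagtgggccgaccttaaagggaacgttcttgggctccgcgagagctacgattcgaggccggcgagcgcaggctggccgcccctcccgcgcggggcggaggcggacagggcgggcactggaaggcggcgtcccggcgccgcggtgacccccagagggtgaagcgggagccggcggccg
Rcan1, internal start: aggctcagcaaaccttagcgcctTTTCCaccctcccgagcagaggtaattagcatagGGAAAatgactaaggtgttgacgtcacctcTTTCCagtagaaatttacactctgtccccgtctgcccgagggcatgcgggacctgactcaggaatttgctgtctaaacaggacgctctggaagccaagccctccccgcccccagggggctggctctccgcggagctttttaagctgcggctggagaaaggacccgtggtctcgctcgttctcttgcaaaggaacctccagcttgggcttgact

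The Nfatc4 window held 3 matches, beginning 186, 119 and 29 bases before the start. The upstream Nfatc2 window held 3 and the downstream one 1. The internal Rcan1 window held 3, beginning 227, 193 and 163 bases before the start, and the upstream Rcan1 window held 0. Such matches are common. Of 32851 promoter windows of this length, 61.3% held at least 1 match and 9.42% at least 3. Of the 12 member windows counted, 8 held at least 1. The most, 4, were in the Ppp3cb window, which is not shown, and 2.65% of all windows held at least 4. Windows were counted for 7 of the 10 members. Windows on 1 chromosome were left out of this count of member windows, and Nfatc1, Ppp3ca and Ppp3cc had none among those kept. No chromosome was left out of the 32851 windows, so the member count and the share over all windows rest on unlike rules. A match describes the letters only, and no binding was measured.

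Values are MAS5 signals, linear brightness per probe set, and each ratio is the CHX+Nell-1 signal over the CHX+PBS signal on the log2 scale. With 1 array per group there is no spread between cultures and no test, so the differences have no replicate check. Each ratio is instead set beside the robust SD of all log2 ratios in the same of 10 equal bins of mean signal, here called the spread at that signal. It was 2.23 in the third bin (signals of 13.2 to 23.8) and 0.21 in the brightest. The threshold of 1.5-fold is the study's own, and a probe set is called bright here if its mean over both arrays is at or above 64.3, the median of all. Chondrocyte markers Col2a1, Acan, Sox9, Sox5, Sox6, Col9a1 and Col11a1 were bright (7 of 12), while Comp, Matn1, Matn3, Hapln1 and Col10a1 were below the median. None of 5 measured T cell and haematopoietic markers and none of 6 endothelial markers was bright. Summed signals were 85.2 with Nell-1 and 72.4 with PBS for the haematopoietic list, 112 and 227 for the endothelial list, and 5734 and 6070 for the chondrocyte list. Sox9 alone had 2577 with Nell-1 and 3375 with PBS. Markers were read by the brightest probe set of each gene. Of the 7 bright chondrocyte markers, 2 were at least 1.5-fold higher with Nell-1 (Acan and Sox6) and 0 lower. Their median log2 ratio was 0.13. Of the 4 bright Sox5 probe sets, however, 1 was past 1.5-fold downward (145 with Nell-1 and 221 with PBS, -0.61). Over all genes bright by their brightest probe set, 4.56% were higher and 7.53% lower. Osteoblast markers, 5 measured and Bglap not, summed to 5413 with Nell-1 and 3917 with PBS. Of these 5, 3 were bright (Alpl, Sp7 and Phex). Higher with Nell-1 were 2, Alpl (3959 with Nell-1 and 2706 with PBS) and Sp7 (1219 with Nell-1 and 894 with PBS). The other 3, Phex, Ibsp and Dmp1, were lower. The median log2 ratio of the 5 was -0.29. None was at least 1.5-fold higher, and the dim Dmp1 was lower by more than that. Bright markers of skeletal muscle were Acta1 and Des (2 of 6), and those of adipocytes were Pparg and Fabp4 (2 of 4). Over all 6 measured muscle markers, bright and dim, signals summed to 327 with Nell-1 and 545 with PBS. Over all 4 measured adipocyte markers they summed to 674 with Nell-1 and 706 with PBS. The 24 poly-A spike-in probe sets, which read bacterial RNA added before labelling, were all dimmer after Nell-1 than after PBS (median log2 ratio -0.49). For the 18 hybridisation spike-ins the median was -0.18. Whether either difference plays a part in the ratios of the members was not tested.

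All 10 members had at least 1 bright probe set, and 27 of the 37 probe sets were bright. Among these 27, 4 had a signal higher with Nell-1 by 1.5-fold or more, 6 a signal lower by as much, and 17 passed in neither direction. Over all 22519 bright probe sets 5.97% were higher and 8.48% lower by that rule, together 14.5%. The 10 calls of the members fell on 5 genes, Nfatc1, Nfatc2, Nfatc4, Nfat5 and Rcan2. The median ratio of the 27 was 0.05, against -0.03 over all bright probe sets. Of the 10 dim member probe sets 9 passed 1.5-fold in one direction or the other, where 66.7% of all dim probe sets did. Counting bright and dim together gave 8 higher, 11 lower and 18 within 1.5-fold of 37, where 17.5% of all probe sets were higher and 23.1% lower, together 40.6%. The filter itself favours differences near its limit. For 3 of the 27 bright probe sets, of Nfatc2 and Nfat5, the signal of only 1 array reached 64.3, and all 3 passed 1.5-fold.

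**Figure D1:**
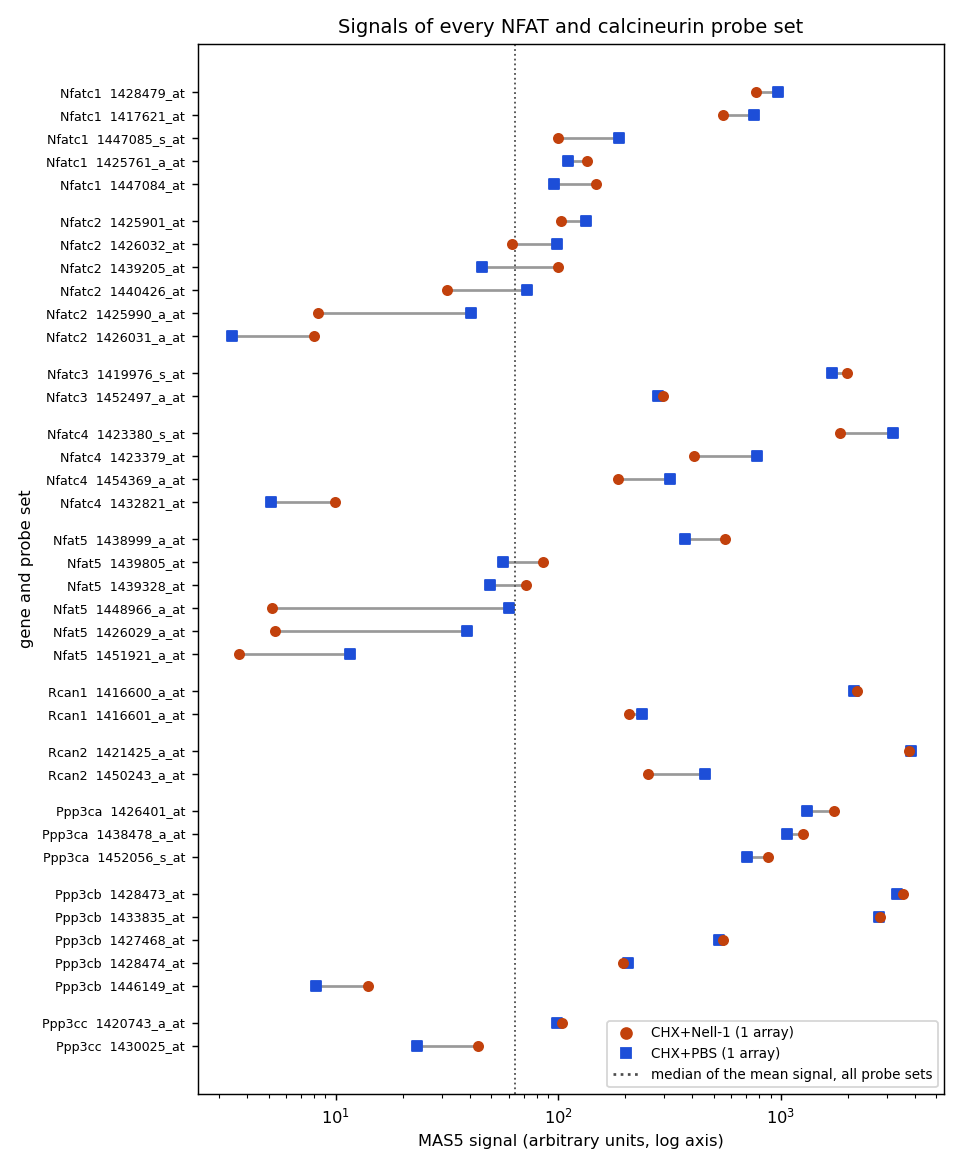
Signals of all 37 member probe sets on a log axis in arbitrary units, with circles for CHX+Nell-1 and squares for CHX+PBS, 1 array each, and a dotted line at 64.3, the median of the mean signal over all probe sets. Nfatc4 lies to the left with Nell-1 on its 3 bright probe sets, the brightest Rcan1, Rcan2 and Ppp3cb points nearly coincide, and the widest gaps belong to dim Nfat5 and Nfatc2 probe sets.

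All 3 bright probe sets of Nfatc4 were lower with Nell-1 by over 1.5-fold. Nfatc4 encodes an NFAT factor known for roles in heart and nervous system development. Its brightest probe set, 1423380_s_at, had a signal of 1852 with Nell-1 and 3203 with PBS, 1.73-fold lower (log2 ratio -0.79, where the spread was 0.21). The probe set 1423379_at had 407 with Nell-1 and 780.4 with PBS, 1.92-fold lower (-0.94, spread 0.33). The probe set 1454369_a_at had 185 with Nell-1 and 319 with PBS, 1.73-fold lower (-0.79, spread 0.43). Lower signals with Nell-1 were thus seen on 3 of 3 bright Nfatc4 probe sets, by 1.82 to 3.81 times the spread at their signal. The brightest of them ends in _s_at and the dimmest in _a_at, types that read several transcripts, and 1423379_at does not. In the brightest bin of the array, 0.577% of 4504 probe sets had a ratio at least as far from 0 as 1423380_s_at, and 0.777% were at least 1.5-fold lower. The fourth Nfatc4 probe set, 1432821_at, was near the bottom of the scale, at 9.91 with Nell-1 and 5.13 with PBS (0.95, spread 1.85). These probe sets read the same RNA pair, so they repeat the measurement of the gene and not the experiment. The poly-A spike-ins were lower with Nell-1 as well, and whether that plays a part in the Nfatc4 ratios was not tested.

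Nfatc2, encoding the factor also called NFAT1, was measured weakly and its probe sets disagreed. The brightest, 1425901_at, had a signal of 103 with Nell-1 and 133 with PBS (log2 ratio -0.36). The probe set 1426032_at had 61.7 with Nell-1 and 99.2 with PBS, 1.61-fold lower (-0.69). The probe set 1439205_at had 100.1 with Nell-1 and 45.3 with PBS, 2.21-fold higher (1.14). The spread at these signals was 0.62, and 36.3% of all probe sets in that bin passed 1.5-fold in one direction or the other. A ratio as far from 0 as that of 1439205_at was found for 10.7% of them. The dim Nfatc2 probe sets were split as well. Signals were 31.7 with Nell-1 and 72.6 with PBS on 1440426_at (-1.19), 8.32 with Nell-1 and 40.6 with PBS on 1425990_a_at (-2.29), and 7.98 with Nell-1 and 3.42 with PBS on 1426031_a_at (1.22). Over the 6 Nfatc2 probe sets, 2 passed 1.5-fold upward, 3 passed downward and 1 passed in neither direction, so the arrays gave no single direction for this gene. The downward call of 1426032_at was lost under each of 3 rescalings of the arrays, with ratios of -0.53, -0.57 and -0.56, and with 17.9 added to the signals (-0.56).

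Nfatc1, encoding the osteoclast master factor, had 5 bright probe sets that also differed in direction. The 2 brightest had lower signals with Nell-1, short of 1.5-fold. The probe set 1428479_at had 770.1 with Nell-1 and 973 with PBS (-0.34, spread 0.28), and 1417621_at had 549 with Nell-1 and 759 with PBS (-0.47, spread 0.28). The dimmer 1447085_s_at had 99.3 with Nell-1 and 188 with PBS, 1.89-fold lower (-0.92, spread 0.43). The remaining pair went the opposite way. The probe set 1447084_at had 149 with Nell-1 and 95.6 with PBS, 1.55-fold higher (0.64), and 1425761_a_at had 135 with Nell-1 and 111 with PBS (0.29), both with a spread of 0.43. The median over the 5 Nfatc1 probe sets was -0.34.

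Nfatc3, encoding the factor also called NFAT4, differed little. Its probe set 1419976_s_at had 1983 with Nell-1 and 1699.5 with PBS (0.22, spread 0.21), and 1452497_a_at had 295 with Nell-1 and 281 with PBS (0.07, spread 0.33). Both were slightly higher with Nell-1 and neither reached 1.5-fold.

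Nfat5, the osmotic stress factor, separated into brighter probe sets that were higher with Nell-1 and dim ones that were lower. The brightest, 1438999_a_at, had 564 with Nell-1 and 370.1 with PBS, 1.52-fold higher (0.61, spread 0.33), and 8.44% of probe sets in its bin had a ratio as far from 0. The probe set 1439805_at had 85.8 with Nell-1 and 56.4 with PBS, also 1.52-fold higher (0.61, spread 0.62). The probe set 1439328_at, just under the median signal, had 71.6 with Nell-1 and 49.5 with PBS (0.53, spread 0.93). These 3 ratios lie close to one another and 2 of them lie just past the threshold. The other 3 Nfat5 probe sets were dim on both arrays. Signals were 5.17 with Nell-1 and 60.3 with PBS on 1448966_a_at (-3.54), 5.34 with Nell-1 and 38.8 with PBS on 1426029_a_at (-2.86), and 3.67 with Nell-1 and 11.6 with PBS on 1451921_a_at (-1.66). The spread at those signals was 1.49, 2.23 and 1.85. A ratio as far from 0 as that of 1448966_a_at was found for 3.86% of its bin. All 3 Nell-1 signals were under 17.9, the 25th percentile of the mean signal. With signals under that value raised to it, the ratios became -1.76, -1.12 and 0.

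**Figure D2:**
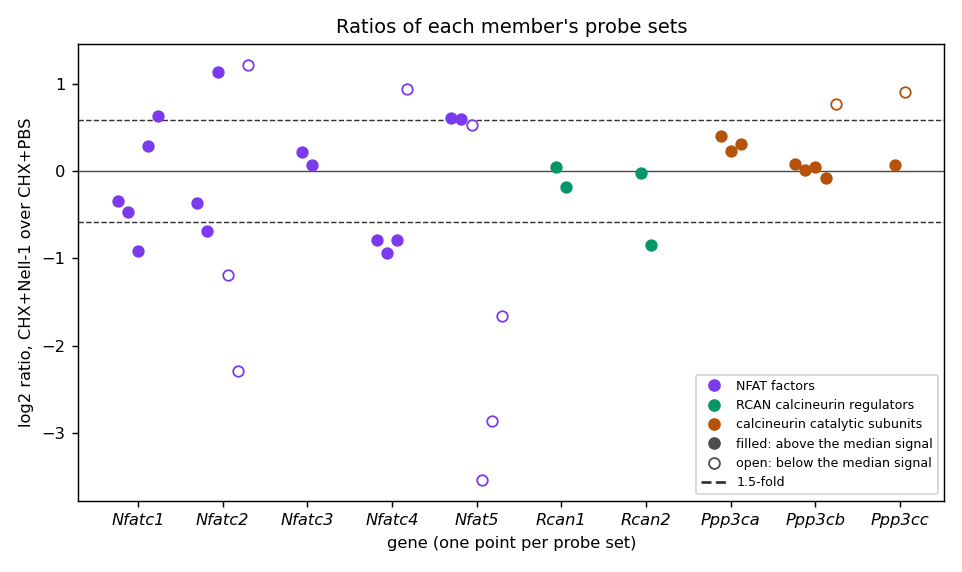
The log2 ratio of CHX+Nell-1 over CHX+PBS for each member probe set, 1 point per probe set in order of falling signal within a gene. Points are filled above the median signal and open below it, and dashed lines mark 1.5-fold. The filled Nfatc4 points sit together between -0.94 and -0.79 and the Ppp3ca points between 0.24 and 0.40, while Nfatc1 and Nfatc2 have filled points on both sides of 0.

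Rcan1, the calcineurin inhibitor whose short isoform is itself an NFAT target, gave nearly the same signals on both arrays. Its probe set 1416600_a_at had 2200.0 with Nell-1 and 2124 with PBS (0.05, spread 0.21), and 1416601_a_at had 209 with Nell-1 and 238 with PBS (-0.18, spread 0.43). Both ratios were within the spread at their signal, and they had opposite signs. Probe sets with the ending _a_at read several transcript variants of 1 gene together, so the isoforms from the upstream and internal starts shown above were not separated.

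Rcan2, a relative of Rcan1 that also binds calcineurin, gave divided readings. The probe set 1421425_a_at had 3778 with Nell-1 and 3824 with PBS (-0.02, spread 0.21). The dimmer 1450243_a_at had 253 with Nell-1 and 455 with PBS, 1.80-fold lower (-0.85, spread 0.33), and 2.22% of probe sets in its bin had a ratio as far from 0. The brighter Rcan2 probe set thus did not differ by more than the spread, and the dimmer one did.

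The calcineurin catalytic subunits did not reach 1.5-fold on any of 8 bright probe sets. Ppp3ca, the alpha isoform, had higher signals with Nell-1 on 3 of 3 probe sets. Signals were 1736 with Nell-1 and 1313 with PBS on 1426401_at (0.40), 1264 with Nell-1 and 1071 with PBS on 1438478_a_at (0.24), and 875 with Nell-1 and 704 with PBS on 1452056_s_at (0.31). The spread there was 0.28, so 2 of the 3 ratios were larger than it, the largest 1.42 times as large. Whether the lower poly-A spike-in signals play a part in the Ppp3ca ratios was not tested. Ppp3cb, the beta isoform, was even on its bright probe sets. Its probe set 1428473_at had 3554 with Nell-1 and 3341 with PBS (0.09), and 1433835_at had 2800.1 with Nell-1 and 2771 with PBS (0.02). On 1427468_at the Ppp3cb signals were 550.4 with Nell-1 and 529.7 with PBS (0.06), and on 1428474_at 195 with Nell-1 and 206 with PBS (-0.07). These 4 ratios were all within the spread at their signal. The dim 1446149_at had 14.0 with Nell-1 and 8.16 with PBS (0.78, spread 1.85). Ppp3cc, the gamma isoform known for its role in testis, had 104 with Nell-1 and 98.5 with PBS on its bright probe set 1420743_a_at (0.07, spread 0.62), and 43.4 with Nell-1 and 23.1 with PBS on the dim 1430025_at (0.91, spread 1.49).

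**Figure D3:**
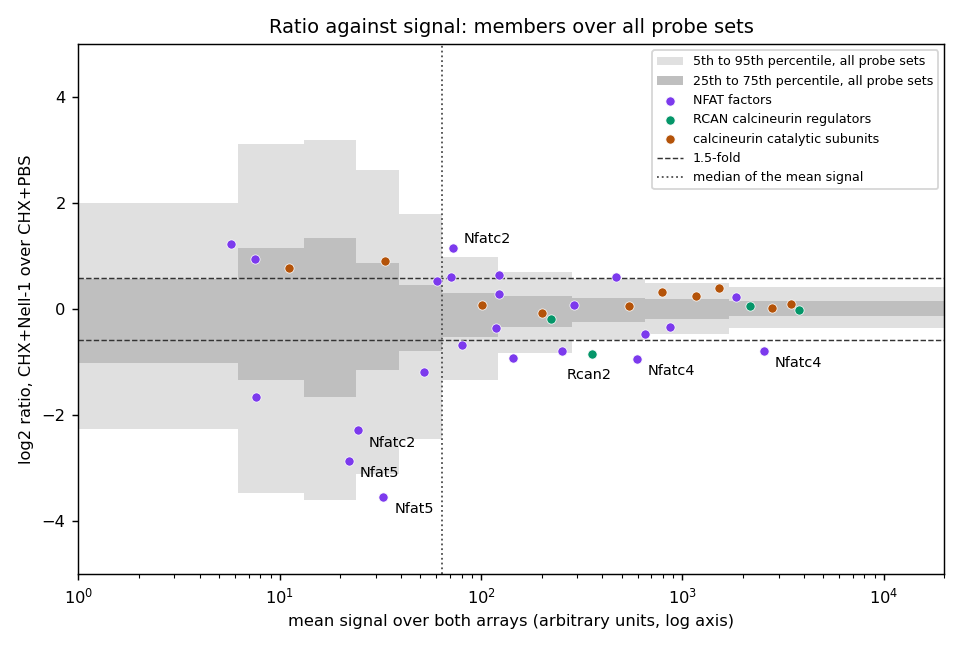
The log2 ratio of CHX+Nell-1 over CHX+PBS against the mean signal (log axis, arbitrary units) for the 37 member probe sets, over bands that hold the central 90% (light) and 50% (dark) of all probe sets in each signal bin. The 8 bright catalytic subunit points stay within 1.5-fold, and the brightest Nfatc4 point, at -0.79, lies below the light band. Another Nfatc4 point and points of Nfatc1, Nfatc2, Nfat5 and Rcan2 lie outside that band too.

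How far 2 readings of the same gene can differ was visible in 7 pairs of member probe sets that the annotation lists under 1 sequence record. In 5 pairs both probe sets were bright, and the gap between their log2 ratios ranged from 0.09 for Ppp3ca to 1.55 for Nfatc1, with a median of 0.24. The Nfatc1 pair was 1447085_s_at, lower by 1.89-fold, and 1447084_at, higher by 1.55-fold. The Rcan2 pair differed by 0.83, the Rcan1 pair by 0.24 and the Ppp3cb pair by 0.16. Only 2 of these 5 pairs, those of Ppp3ca and Rcan2, had the same sign. The 2 pairs with a dim probe set, of Nfatc2 and Nfatc4, differed by 1.91 and 1.74 and had opposite signs.

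Genes that act around calcineurin and NFAT were read by the brightest probe set of each, from 6 lists with 103 genes, of which 94 were measured. Over all 11600 genes bright by this measure, 4.56% were higher and 7.53% lower by 1.5-fold, and the median ratio was -0.03. As for the members, the filter favours differences near its limit. By the same measure 10 of 10 members were bright, with 1 higher (Nfat5), 1 lower (Nfatc4), 8 neither and a median of 0.06. Among calcineurin partners and inhibitors, 7 of 11 measured genes were bright and none of these passed 1.5-fold, with a median of -0.10. The regulatory subunit Ppp3r1 had 2656 with Nell-1 and 2832 with PBS (-0.09), and Rcan3 gave 717 on both arrays (0.00). Cabin1, which binds and inhibits calcineurin, had 726 with Nell-1 and 929 with PBS (-0.36), but 1 of its 3 bright probe sets was past 1.5-fold the other way (0.68). The remaining genes with the largest ratios in that list were Myoz1, a calcineurin-binding muscle protein (0.32), Fkbp1b, an FK506-binding protein (-0.19), and Ppif, the mitochondrial cyclophilin (-0.18).

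Among kinases, scaffolds and transport factors that act on NFAT, 18 of 19 measured genes were bright, none was higher and 1 was lower by 1.5-fold, with a median of 0.00. That gene was Gsk3a, a glycogen synthase kinase that phosphorylates NFAT proteins, with 1921 with Nell-1 and 3222 with PBS, 1.68-fold lower on its only bright probe set (-0.75, spread 0.21). Its paralogue Gsk3b had 1537 with Nell-1 and 1305 with PBS (0.24). Dyrk2, a kinase of NFAT (0.44), Csnk1a1, encoding casein kinase 1 alpha (0.41), and Xpo1, the nuclear export receptor (0.36), were the other large ratios, none at 1.5-fold. Of the genes for calcium release and entry, 18 of 20 were bright and none passed 1.5-fold, with a median of -0.03. The nearest was Orai2, a store-operated calcium channel, with 491 with Nell-1 and 334 with PBS (0.56), while its second bright probe set gave -0.57. Cacna1c, the L-type calcium channel (-0.51), Plcb4 (0.38) and Plcb1 (0.38), phospholipases that release inositol trisphosphate, followed. The other 2 bright Plcb1 probe sets were lower, the lowest at -1.27.

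DNA-binding partners of NFAT leaned to lower ratios. Of 11 bright genes 4 passed 1.5-fold downward and none upward, and 7 stayed inside it. Their median was -0.29, against -0.03 over all bright genes. The list was chosen with earlier results of these data known, so the lean is a description of these genes only. Fos, an AP-1 subunit, had 168 with Nell-1 and 343 with PBS (-1.03, spread 0.43). Gata4, a zinc-finger factor that partners NFATc4 in heart muscle, had 111 with Nell-1 and 223 with PBS (-1.01, spread 0.43). The dim Gata4 probe set had 9.60 with Nell-1 and 8.21 with PBS (0.23, spread 1.85). In the signal bin that holds the bright Fos and Gata4 probe sets, 11.7% of all probe sets were at least 1.5-fold lower. Mef2c, a muscle and cartilage hypertrophy factor, had 55.5 with Nell-1 and 101 with PBS (-0.86, spread 0.62). In the signal bin of that Mef2c probe set, 22.9% of all probe sets were at least 1.5-fold lower. Only the PBS signal of Mef2c reached the median that defines bright, so the filter itself favoured its downward call. Jun, the AP-1 partner of Fos, had 1970.2 with Nell-1 and 2963 with PBS (-0.59, spread 0.21), on 1 of its 2 bright probe sets. After median centring of the arrays Jun no longer passed, which left 3 lower genes and a median of -0.14, against 0.12 over all bright genes. The poly-A spike-ins were lower too, with their median of -0.49, and their part in these ratios was not tested.

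Target genes known from calcineurin and NFAT signalling, mostly studied in lymphocytes and osteoclasts, were largely dim, with 8 of 20 bright. Past 1.5-fold were 1 upward and 2 downward of these 8, and the median was 0.00. Egr3, a zinc-finger factor, had 166 with Nell-1 and 80.8 with PBS (1.04, spread 0.43), while its dim probe set had 23.5 with Nell-1 and 77.7 with PBS (-1.73, spread 0.93). Its relative Egr2 had 49.9 with Nell-1 and 93.6 with PBS (-0.91, spread 0.62). Cd40lg, a T cell ligand, had 49.3 with Nell-1 and 79.6 with PBS (-0.69, spread 0.62), and did not pass under any of the 3 rescalings, which left 1 lower target. For Egr2 and Cd40lg only the PBS signal reached the median that defines bright, so the filter itself favoured these downward calls. Oscar, an osteoclast receptor, was at -0.17. Other targets were even, among them Ptgs2, encoding cyclooxygenase 2, at 1279 with Nell-1 and 1225 with PBS (0.06) and Vegfa, an angiogenic factor, at 696 with Nell-1 and 705 with PBS (-0.02). Of the 9 measured targets of NFAT5, 7 were bright and none passed 1.5-fold, with a median of 0.00. The myo-inositol transporter Slc5a3 had 659 with Nell-1 and 548 with PBS (0.27). The taurine transporter Slc6a6 had 5831 with Nell-1 and 5832 with PBS (0.00), but 1 of its 3 bright probe sets was past 1.5-fold upward, at 97.6 with Nell-1 and 34.7 with PBS (1.49, spread 0.62). Hspa1b, a heat shock protein (-0.18), Slc14a2, a urea transporter (0.11), and S100a4, a calcium-binding protein (-0.08), were the others with the largest ratios.

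**Figure D4:**
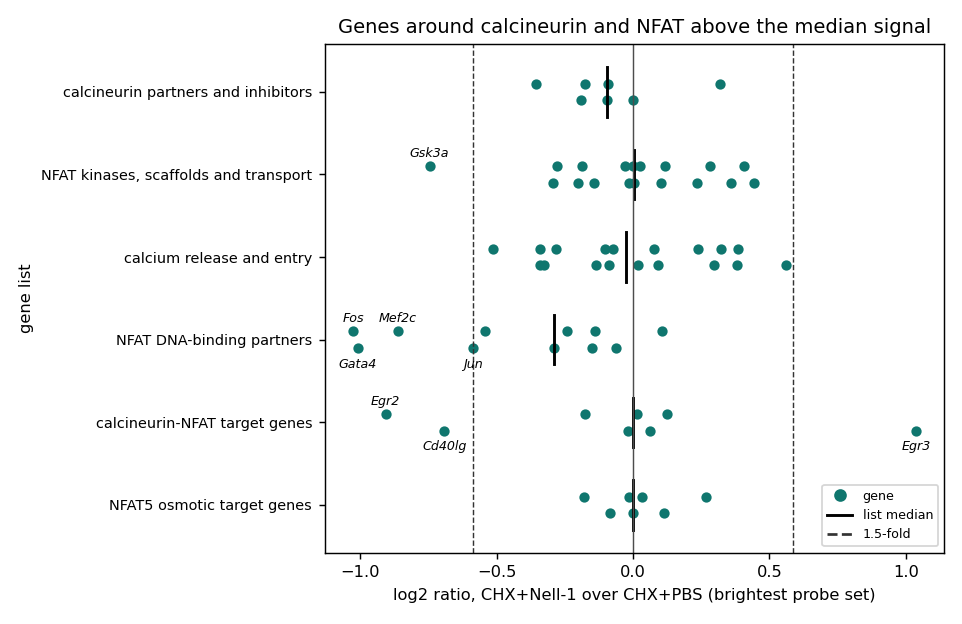
The log2 ratio of CHX+Nell-1 over CHX+PBS for genes above the median signal in 6 lists, each gene by its brightest probe set, with a bar at the list median and dashed lines at 1.5-fold. Named points passed 1.5-fold, and 4 of them, Fos, Gata4, Mef2c and Jun, are lower DNA-binding partners of NFAT.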

How the data were processed

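The deposited intensities are linear MAS5 signals per probe set of a mouse expression array, 1 array per group. The authors made them with Affymetrix Expression Console and MAS5, per the submitters' processing notes, with versions not given in the sources used here. A 2% trimmed mean of 500.0 was found on each array. The precision is limited by the number of arrays, and no spread between cultures, test or p-value can be had. Detection calls were not used here. Of 45101 probe sets, 64 controls were kept apart, 34945 carried 1 gene symbol, 932 several and 9160 none. Names came from the platform annotation, and the gene IDs of all 10 members matched a RefSeq table.

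Ratios were taken on the log2 scale with nothing added to the signals. The robust SD is the median absolute deviation scaled to an SD, computed per bin of mean signal (10 bins of equal size), and holds noise and real differences alike. Every member probe set is named, and, in each of 6 lists, up to 4 bright genes with the largest absolute ratio. Other genes named (Ppp3r1, Rcan3, Gsk3b, Ptgs2, Vegfa, Slc6a6, and those in the closing section) were chosen after their values were seen. No gene was named for a like pattern, since 2 arrays give none. Members and lists were chosen with earlier results of these data known. Alternatives were 3 rescalings, an added or a floor value of 17.9, signal filters, probe set types, a 2-fold threshold and 1 value per gene. The code was tested on simulated data. Python 3.11.15, pandas 2.3.3 and statsmodels 0.14.6 were used.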

Additional observations from a re-analysis of the deposited data

How the results depend on the processing

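Counts of calls depended on how probe sets were filtered more than on how arrays were scaled. The 6 bright member probe sets that were at least 1.5-fold lower became 5 after median centring, removal of a loess trend, quantile normalization or an added 17.9, where 1426032_at of Nfatc2 no longer passed, and the 4 higher ones stayed 4 under the 3 rescalings and became 2 with 17.9 added. With no filter on signal there were 8 higher and 11 lower. With a mean signal of at least 2 times the median, 1 was higher, and with both signals at or above the median, 2 were higher. Leaving out the probe set types that read several transcripts gave 2 lower. At 2-fold 1 was higher and 0 were lower, and with 1 value per gene, by the brightest probe set or by the mean, 1 gene was higher and 1 lower. The median ratio of the bright members ranged from -0.00 to 0.20 over these alternatives, against 0.05 as deposited. None of the 19 called single ratios changed sign under the 3 rescalings, the added value or the floor, though 4 dim ones became 0 on the floor and 3 of 185 single ratios moved by over 1 spread. Nfatc4 kept its 3 lower calls in all 5, with ratios from -0.94 to -0.64. Median centring moved the median of all ratios to 0.09, against -0.06 as deposited, and gave 2408 higher and 1242 lower of all bright probe sets, where the deposited signals gave 1344 and 1910, the loess fit 1575 and 1630, and quantile normalization 1601 and 1606. In the lists around the members, median centring brought Dyrk2 and Orai2 past 1.5-fold upward, and Cd40lg passed in none of the 3 rescalings. Leaving out a replicate was not possible with 1 array per group. No paired analysis was possible because each group has 1 array.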

Other observations

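A further group of genes linked to NFAT by name or by reports on Nell-1 was read after the lists above, and chosen with their values in view. Nfatc2ip, encoding a protein that binds NFATc2, had 818 with Nell-1 and 683 with PBS on its bright probe set (log2 ratio 0.26, spread 0.28), and 32.3 with Nell-1 and 72.1 with PBS on its dim one (-1.16, spread 0.93). Runx3, a factor of cartilage maturation, had 807 with Nell-1 and 758 with PBS on its brighter probe set (0.09, spread 0.28) and 160 with Nell-1 and 210 with PBS on the other (-0.40, spread 0.43). Ihh, the growth plate hedgehog ligand, was dim, at 25.4 with Nell-1 and 76.5 with PBS. None of the bright probe sets of these genes reached 1.5-fold.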
